A study of Mus musculus with 3 samples.

Results

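The genes described here encode the fibroblast growth factors (FGF), platelet-derived growth factors (PDGF), epidermal growth factor (EGF) family ligands and other ligands of receptor tyrosine kinases, with their receptors, as measured in endothelial cells of the adult mouse renal medulla. They were chosen by name: every numbered Fgf gene, the FGF receptors, and the ligands and receptors of the PDGF, KIT, CSF1, HGF, GDNF, EGF and TAM (Tyro3, Axl, Mertk) systems. The rule names 55 genes, of which 54 were read by a probe set naming that gene alone, of 19938 genes measured in this way. Each of the 54 had 1 such probe set. Areg, the EGF receptor ligand amphiregulin, had none and was not analysed here. The measured members were 32 secreted ligands, 4 intracellular FGF homologous factors and 18 receptors.

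All samples belonged to 1 group of 3 arrays, so no contrast between conditions was possible. The cells came from the medulla of adult male FVB/N mice carrying the transgene Tg(TIE2GFP)287Sato, in which the promoter of Tie2 (Tek) drives green fluorescent protein. Tie2 is also known from some blood cells, so green cells need not all be endothelial. Each array carried RNA of sorted green cells from 2 pooled kidneys, dissociated with collagenase and amplified once before hybridisation to a whole-transcript gene array. The study treats the arrays as independent samples, and the labels do not say which animals they came from. No p-value covers more than the spread between these 3 arrays. Where a gene had the same value in all arrays, its p-value rests on the spread of other genes. Precision is limited by the number of arrays. The medians over all probe sets were 8.003, 8.025 and 8.030 on the log2 scale in replicates 1, 2 and 3. In keeping with the endothelial label, 8 of 8 endothelial markers, including Pecam1, Cdh5 and Emcn, lay over both background limits described below in every array. So did 2 of 5 thick ascending limb and 1 of 6 collecting duct markers. Of 8 pericyte and smooth muscle and 6 fibroblast markers, 1 each did. Of the proximal tubule, macrophage and leukocyte, and mast cell markers, 0 did. The share of all genes over both limits in every array was 32.8%. Purity was not measured.

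Receptor tyrosine kinases are membrane proteins that pair when a ligand binds, phosphorylate each other and recruit adaptors that switch on the RAS-ERK and PI3K cascades. Endothelial cells are best known as a source of PDGF-B, which acts on the PDGF receptor beta of the pericytes around them, and as a target of FGF2 and HGF. The TAM receptors recognise phosphatidylserine on dying cells through the bridging ligands Gas6 and protein S.

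A level is given as the deposited log2 value, or in units, which is 2 to the power of that value. Probes differ in affinity, so levels of different genes were set against limits and not ranked against each other. The first limit, 100 units (log2 6.64), follows the filter of the study. The second, called the background limit, was set at the 95th percentile of 1247 probe sets for olfactory, vomeronasal and bitter taste receptors, at 7.95 (247 units). Of those sensory probe sets, 34.7% reached 100 units in every array. Their 99th percentile lay at 8.72 (421 units) and served as a stricter limit. Falling short of this limit does not show that a gene is silent.

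Most members lay near or under the background, and a smaller number stood well over it. A level of 100 units or more in all 3 arrays was found for 53 of 54 members (98.1%), against 85.4% of all genes. The background limit was reached in all arrays by 25 members (46.3%), against 54.9% of all genes. The 99th percentile limit was reached by 10 members (18.5%), against 32.8% of all genes. These shares of all genes also stand beside the counts of smaller groups and marker lists below. Those 10 were Gas6, Kitl, Hbegf, Pdgfb, Pdgfa and Csf1 among the ligands and Mertk, Erbb2, Met and Fgfr1 among the receptors. The median level was 7.86 over the members and 8.15 over all genes. In sorted bulk RNA, fewer cells of a type and less RNA per cell cannot be told apart.

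limma with Benjamini-Hochberg adjustment over all genes placed 53 members above 100 units, where 84.5% of all genes were placed, and 1 member, Fgf2, below it, as for 13.7% of all genes. Against the background limit it placed 23 members above, with 52.5% of all genes above, and 29 below, with 41.4% of all genes below. Fgf9 and Fgf15 could not be told from that limit (adjusted p = 0.080 and 0.064 by limma). The value was the same in all 3 arrays for 36 members, which made limma's error for them close to 0. A second fit drew its prior variance only from genes whose 3 values all differed, and every adjusted p printed for a gene from here on is from that fit against the background limit, unless another limit is named. For those 36 members the error in this fit came from the spread of other genes alone. Their adjusted p therefore reflects only the distance from the limit. The second fit was the more stable one when an array was left out. The second fit placed 20 members above the background limit, with 49.7% of all genes above, and 26 below, with 37.9% of all genes below. It left 8 undecided, with 12.4% of all genes undecided (Fgf3, Fgf4, Fgf5, Fgf9, Fgf15, Fgfr4, Gdnf and Tyro3).

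**Figure D1:**
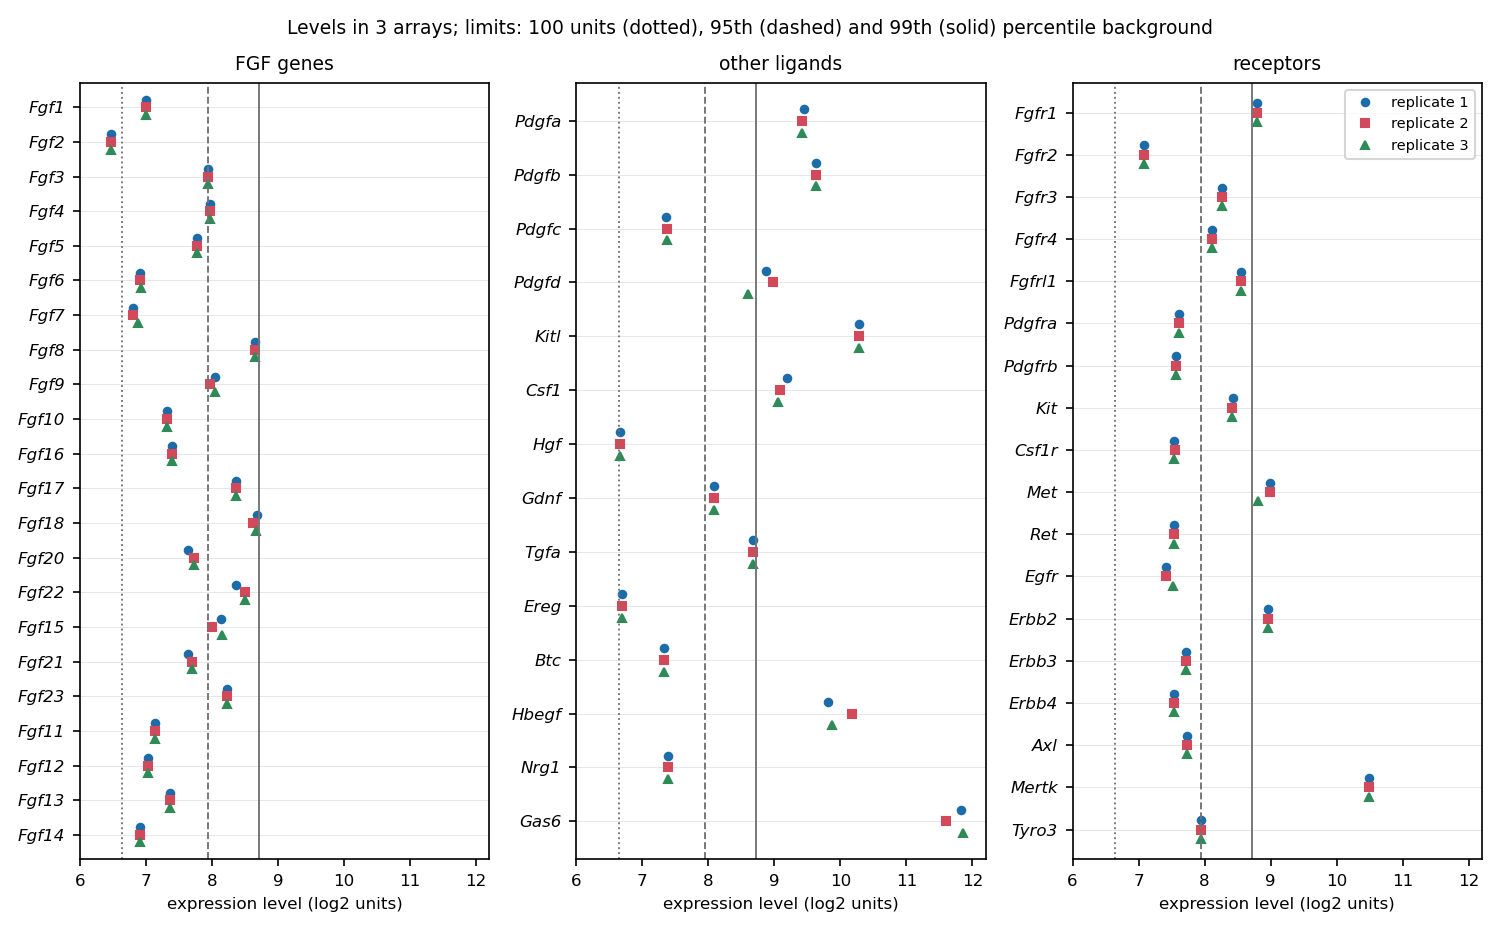
Expression level (log2 units, horizontal axis) of the 54 members in replicates 1 (circles), 2 (squares) and 3 (triangles), in panels of FGF genes, other ligands and receptors. The dotted, dashed and solid lines mark 100 units (6.64) and the 95th (7.95) and 99th (8.72) percentile background limits, and no FGF gene lay over the solid line in any array.

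The TAM system had its ligand Gas6 and the receptor Mertk well over both background limits. Gas6, the vitamin K-dependent ligand of all TAM receptors, had levels of 11.82, 11.59 and 11.86 in replicates 1, 2 and 3. The mean of 11.76 ± 0.14 (SD, n = 3), or 3467 units, was 14.1 times the background limit (adjusted p = 2.8e-05, limma), and 0 of the 1247 sensory probe sets reached it. Mertk, a TAM receptor known for the uptake of apoptotic cells, stood at 10.49 in each of the 3 arrays, which is 1435.5 units and 5.82 times the limit (adjusted p = 2.9e-05). Only 1 sensory probe set was as high.

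The other TAM receptors lay at or under the limit. Tyro3, best known from the nervous system, was at 7.94 in each array, and its level could not be told from the limit (adjusted p = 0.93). Axl, the TAM receptor with the strongest preference for Gas6, was at 7.74 in each array, 0.866 times the limit (adjusted p = 0.030). Pros1, which encodes protein S, the ligand of Mertk and Tyro3, was no member by the rule and had levels of 10.83, 10.53 and 10.53, all over the 99th percentile limit. Both ligands of the system and 1 of its 3 receptors were thus over the stricter limit in every array.

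The sequences upstream of these 4 genes and of Kitl are shown because the TAM receptors fell on different sides of the limit and Kitl is described next. Each is the 250 bases before the RefSeq start on GRCm38.p6, written 5′ to 3′ on the strand of the gene. Capitals mark GC boxes (GGGCGG or its reverse complement) and, in Kitl, also an ETS core (CCGGAA) and a TATA box (TATAAA), each searched on both strands. Gas6 lies at chr8:13494536-13494785 (minus strand), Mertk at chr2:128698665-128698914 (plus strand), Tyro3 at chr2:119799264-119799513 (plus strand), Axl at chr7:25788734-25788983 (minus strand) and Kitl at chr10:100015571-100015820 (plus strand).
Gas6: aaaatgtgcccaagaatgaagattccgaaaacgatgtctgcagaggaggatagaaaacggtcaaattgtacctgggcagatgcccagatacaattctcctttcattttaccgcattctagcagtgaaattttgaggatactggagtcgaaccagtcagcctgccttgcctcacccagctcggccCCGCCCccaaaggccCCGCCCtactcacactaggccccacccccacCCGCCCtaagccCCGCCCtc
Mertk: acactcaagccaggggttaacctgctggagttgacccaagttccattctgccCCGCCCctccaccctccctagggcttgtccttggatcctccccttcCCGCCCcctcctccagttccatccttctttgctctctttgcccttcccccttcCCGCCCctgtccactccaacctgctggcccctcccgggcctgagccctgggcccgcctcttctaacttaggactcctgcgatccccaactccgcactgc
Tyro3: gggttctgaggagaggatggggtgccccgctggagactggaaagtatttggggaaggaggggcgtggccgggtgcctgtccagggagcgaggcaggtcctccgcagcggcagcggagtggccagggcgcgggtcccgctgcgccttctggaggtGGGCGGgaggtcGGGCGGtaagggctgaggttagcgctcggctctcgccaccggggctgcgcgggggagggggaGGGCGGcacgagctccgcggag
Axl: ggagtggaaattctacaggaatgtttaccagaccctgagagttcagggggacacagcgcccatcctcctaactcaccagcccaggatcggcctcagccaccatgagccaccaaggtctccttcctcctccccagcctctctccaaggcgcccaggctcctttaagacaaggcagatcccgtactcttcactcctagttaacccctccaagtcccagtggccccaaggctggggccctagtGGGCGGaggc
Kitl: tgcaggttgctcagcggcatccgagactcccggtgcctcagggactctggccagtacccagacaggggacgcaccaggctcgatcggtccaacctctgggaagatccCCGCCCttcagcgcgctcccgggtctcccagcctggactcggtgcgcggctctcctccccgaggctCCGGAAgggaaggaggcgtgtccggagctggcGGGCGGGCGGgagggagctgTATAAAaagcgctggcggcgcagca
Gas6 had 4 GC boxes, beginning 66, 51, 20 and 8 bases before the start. Mertk had 3 at 198, 152 and 99 bases, Tyro3 had 3 at 96, 84 and 22 bases, and Axl had 1 at 10 bases. Kitl had 3, at 143, 45 and 41 bases, of which the last 2 overlap, an ETS core at 77 bases and a TATA box at 25 bases before the start. The windows held 10 CpG dinucleotides in Gas6, 7 in Mertk, 24 in Tyro3, 5 in Axl and 23 in Kitl. GC boxes thus occurred on both sides of the expression limit, and a match is a description of the letters and not of a bound site.

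Among all members, 39 had 50 such windows in the RefSeq table, since some genes have several starts, and 15 had none in it. A GC box was found in 31 of the members' 50 windows (62%), against 32.7% of 32851 windows of all genes. The members' windows were also richer in CpG, with a median of 13 against 6 in all windows. The part of base composition in the GC box shares was not tested. An ETS core was found in 7 (14%), against 12% of all windows, and a TATA box in 4 (8%), against 12.4%. These shares include members over and under the background limit.

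Among the members of the KIT and CSF1 systems, both ligands were over the stricter limit. Of the receptors, 1 was between the limits and 1 was under the background limit. Kitl, which encodes stem cell factor, the ligand of KIT, stood at 10.29 in each array, or 1252 units, 5.07 times the background limit (adjusted p = 3.2e-05, limma). Kit had 8.43, 8.42 and 8.42, a mean 1.39 times the limit (adjusted p = 0.0021). KIT is the receptor of mast cells and blood progenitors and is also known from some endothelial cells.

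Mast cell markers were measured beside Kit. Of 5 such genes, 1 (Tpsb2, a tryptase, at 7.98) reached the background limit but could not be told from it (adjusted p = 0.64). Cpa3, the mast cell carboxypeptidase, was at 6.16 and Fcer1a, a chain of the IgE receptor, at 5.56. The summed level of the 5 was 571, 573 and 573 units in replicates 1, 2 and 3. The chymase Cma1 (7.08) and the protease Mcpt4 (6.04, 6.08 and 6.08) were also under the limit.

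Csf1, the growth factor of macrophages, had 9.19, 9.09 and 9.06, or 9.11 ± 0.07 (SD, n = 3), which is 554 units and 2.24 times the limit (adjusted p = 0.00018). Its receptor Csf1r, a gene of macrophages and monocytes, was at 7.54, 7.55 and 7.54, 0.756 times the limit (adjusted p = 0.0036). Il34, the second ligand of CSF1R, was no member by the rule and was at 8.29 in each array, under the stricter limit. Of 8 macrophage and leukocyte markers, 2 (Cd68 at 7.99 and C1qb at 7.96) reached the background limit. Neither could be told from it (adjusted p = 0.49 and 0.79). The pan-leukocyte gene Ptprc (6.68) and the macrophage gene Adgre1 (6.18) were under that limit. The summed level of the 8 markers was 1455, 1511 and 1468 units in replicates 1, 2 and 3.

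Among PDGF genes, 3 of 4 ligands were over the background limit and neither receptor was, where 54.9% of all genes reached it in all arrays. Pdgfb, the ligand that holds pericytes to vessels, stood at 9.63 in each array, or 793 units, 3.21 times the limit (adjusted p = 5.5e-05, limma). Pdgfa, the main ligand of PDGF receptor alpha, had 9.44, 9.43 and 9.43, a mean of 690.4 units and 2.80 times the limit (adjusted p = 7.3e-05). Pdgfd, a ligand of PDGF receptor beta that has to be cleaved to act, had 8.87, 8.98 and 8.60, or 8.82 ± 0.20 (SD, n = 3), 1.83 times the limit (adjusted p = 0.0017). Replicates 1 and 2 were over the 99th percentile limit and replicate 3 was under it. Pdgfc, the other ligand that needs cleavage, was at 7.37, 7.38 and 7.38, under the limit (adjusted p = 0.0012).

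The receptors were Pdgfra, of fibroblasts, at 7.61 in each array (adjusted p = 0.0066) and Pdgfrb, of pericytes and smooth muscle, at 7.56 in each array (adjusted p = 0.0043), 0.792 and 0.767 times the limit. Of 8 pericyte and smooth muscle markers, 4 reached the background limit in all arrays (Kcnj8 at 8.87, Notch3 at 8.51, Cspg4 at 8.01, 8.01 and 8.04, and Abcc9 at 8.0003). Cspg4 and Abcc9 could not be told from that limit (adjusted p = 0.28 and 0.43). The 8 markers had a summed level of 2219, 2185 and 2190 units in replicates 1, 2 and 3. The contractile gene Acta2 was at 7.56. Of 6 fibroblast markers, 3 reached the limit, all of them collagen genes, with a summed level of 1319, 1333 and 1333 units.

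Among the measured members of the EGF family, 2 of 5 ligands and 1 of 4 receptors were over the background limit. Of all genes, 54.9% reached it in all arrays. Hbegf, heparin-binding EGF-like growth factor, had 9.81, 10.18 and 9.87 in replicates 1, 2 and 3. Its mean of 9.95 ± 0.20 (SD, n = 3), or 991 units, was 4.02 times the limit (adjusted p = 0.00014, limma), and replicate 2 stood above the other arrays. Tgfa, transforming growth factor alpha, was at 8.68 in each array, 1.66 times the limit (adjusted p = 0.00053).

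The other ligands among the measured members were under the limit. They were Btc, betacellulin, at 7.33, Nrg1, a neuregulin that acts through ERBB3 and ERBB4, at 7.39, and Ereg, epiregulin, at 6.69, each the same in all arrays. Ereg could not be told from 100 units either (adjusted p = 0.46 against 100 units).

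Of the receptors, Erbb2, which has no known ligand of its own and signals as the partner of the others, was at 8.96 in each array, or 498 units, 2.02 times the limit (adjusted p = 0.0002). Egfr, the receptor of Hbegf and Tgfa, had 7.42, 7.42 and 7.52, or 7.46 ± 0.06 (SD, n = 3), 0.711 times the limit (adjusted p = 0.0025). Erbb3, whose kinase is weak, was at 7.72 (adjusted p = 0.025) and Erbb4 at 7.53 (adjusted p = 0.0033), each the same in all arrays. The receptor over the limit was the one that binds no ligand, and all 3 ligand-binding receptors were under it.

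Met, the receptor of hepatocyte growth factor, had 8.99, 8.99 and 8.81, or 8.93 ± 0.10 (SD, n = 3), which is 487 units and 1.97 times the limit (adjusted p = 0.0004, limma). Its ligand Hgf, known from stromal cells, was at 6.67 in each array, under the background limit (adjusted p = 0.00011) and not told from 100 units (adjusted p = 0.70 against 100 units). Collecting duct cells are also known for Met: of 6 collecting duct markers, 3 reached the background limit, among them Aqp2, the vasopressin-regulated water channel, at 9.67, 9.67 and 9.27. Met and Aqp2 were both lowest in replicate 3, and so was Atp6v1g3 (7.92, 7.69 and 7.38), but Hsd11b2 (8.25), Scnn1g (6.43) and Slc4a1 (7.94) had the same value in all arrays and Aqp3 had 8.55, 8.56 and 8.55. The part of those cells in the level of Met was not tested.

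Ret, the receptor of GDNF in the ureteric bud and neurons, was at 7.53 in each array, 0.749 times the limit (adjusted p = 0.0033). Gdnf was at 8.08 in each array, 1.10 times the limit, and could not be told from it (adjusted p = 0.095). Of the 4 GDNF family coreceptors, Gfra1 (8.20) was above the limit, Gfra3 (8.09) could not be told from it (adjusted p = 0.085), and Gfra2 (7.58) and Gfra4 (7.18) were below it, each with the same value in all arrays.

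The 22 Fgf genes lay close to the background limit or under it, and none was over the stricter one. In all 3 arrays, 21 reached 100 units, 8 reached the background limit (36.4%) and 0 reached the 99th percentile limit, by counts without a test. By the second limma fit, 5 were above the background limit (Fgf8, Fgf17, Fgf18, Fgf22 and Fgf23), 12 were below it and 5 were undecided, where 49.7%, 37.9% and 12.4% of all genes were.

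The FGF8 subfamily, which patterns the embryo and acts on mesenchymal FGF receptor isoforms, was over the limit in all 3 of its genes. Fgf8 was at 8.66 in each array, 1.64 times the limit (adjusted p = 0.00057). Fgf18 had 8.68, 8.62 and 8.67 (8.66 ± 0.03, SD, n = 3), also 1.64 times the limit (adjusted p = 0.00062), and Fgf17 was at 8.37 in each array, 1.34 times the limit (adjusted p = 0.0031). The margins were small: 13 of the 1247 sensory probe sets were as high as Fgf8 or higher, and likewise 13 for Fgf18 and 26 for Fgf17.

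In the subfamily of Fgf3, Fgf7, Fgf10 and Fgf22, whose products act mainly on epithelia, Fgf22 had 8.36, 8.50 and 8.50, or 8.45 ± 0.08 (SD, n = 3), 1.42 times the limit (adjusted p = 0.0027). Fgf3 was at 7.94 in each array (adjusted p = 0.93). Fgf10, the ligand that branches lung and limb epithelia, was at 7.32 in each array (adjusted p = 0.00087), and Fgf7, keratinocyte growth factor, had 6.81, 6.81 and 6.88 (adjusted p = 0.00017). Fgf22 was thus the member of this subfamily over the limit, and Fgf7 and Fgf10 were under it.

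Fgf1 and Fgf2, the FGFs best known as mitogens of endothelial cells, were both under the background limit. Fgf1 was at 6.997 in each array, or 128 units (adjusted p = 0.00024). Fgf2 was at 6.46 in each array, or 88.3 units, 0.358 times the background limit (adjusted p = 7.3e-05), and also under 100 units (adjusted p = 0.042 against 100 units, and 0.052 without replicate 3).

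The remaining secreted FGFs lay close to the limit or under it. Fgf4 was at 7.98 in each array (adjusted p = 0.64) and its relatives Fgf5 (7.78, adjusted p = 0.052) and Fgf6 (6.91, 6.91 and 6.93, adjusted p = 0.00019) were under it in every array. Fgf9, a growth factor with a role in gonad and lung, had 8.04, 7.97 and 8.04 (adjusted p = 0.32), while its relatives Fgf16 (7.40, adjusted p = 0.0013) and Fgf20 (7.64, 7.73 and 7.73, adjusted p = 0.022) were under the limit.

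The endocrine FGFs travel in blood and need a klotho protein as coreceptor. Fgf23, the phosphate hormone of bone, was at 8.22 in each array, 1.21 times the limit (adjusted p = 0.012). Fgf15, the gut hormone that controls bile acid synthesis, had 8.14, 8.01 and 8.16 (8.10 ± 0.08, SD, n = 3), and could not be told from the limit (adjusted p = 0.094, and 0.041 without replicate 2, which held its lowest value). Fgf21, the metabolic hormone of liver, had 7.63, 7.70 and 7.70 (adjusted p = 0.015), under the limit. The coreceptors Kl (7.31), which pairs with FGF23, and Klb (6.80), which pairs with FGF15 and FGF21, were under the limit in every array.

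The 4 FGF homologous factors, which stay in the cell and bind voltage-gated sodium channels, were all under the background limit and over 100 units, with the same value in every array. Fgf13 was at 7.37, Fgf11 at 7.14, Fgf12 at 7.03 and Fgf14 at 6.904 (adjusted p between 0.00018 and 0.0011).

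Of the 5 FGF receptors, 4 reached the background limit in all arrays, as did 54.9% of all genes. Fgfr1, the FGF receptor usually reported for endothelium, was at 8.80 in each array, or 445 units, 1.80 times the limit (adjusted p = 0.00033, limma), and was the member of the group over the 99th percentile limit. Fgfrl1, a receptor that lacks a kinase domain, was at 8.55 (1.52 times the limit, adjusted p = 0.00097). Fgfr3 was at 8.27 (1.25 times the limit, adjusted p = 0.0077). Fgfr4 at 8.11 was not told from the limit (adjusted p = 0.056). Fgfr2, the receptor of epithelia for FGF7 and FGF10, was at 7.09, 0.551 times the limit (adjusted p = 0.00032). All 5 had the same value in every array, so their spread between samples could not be measured.

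**Figure D2:**
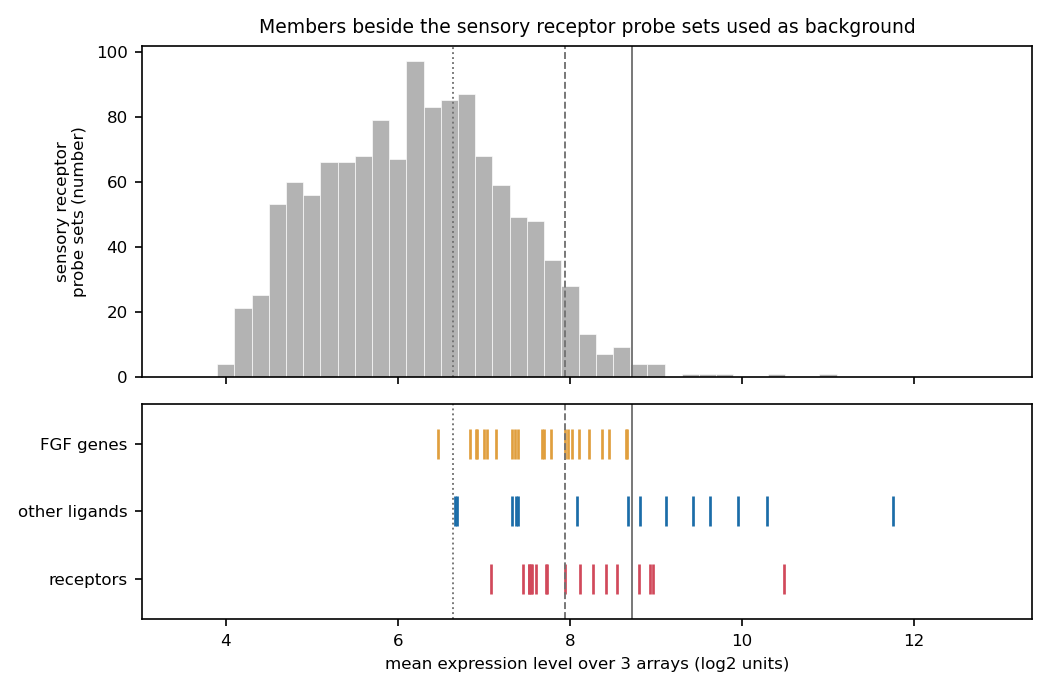
Upper panel, number of sensory receptor probe sets (vertical axis) by mean level (log2 units, horizontal axis). Lower panel, mean level over 3 arrays of each FGF gene, other ligand and receptor as a tick on the same axis, with 100 units dotted and the 95th (7.95) and 99th (8.72) percentile limits dashed and solid. The FGF ticks end at 8.66, within the upper tail of the sensory probe sets, and Gas6 at 11.76 is beyond all of them.

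The other genes of these pathways were taken from lists by function. Beside their counts, 54.9% of all genes reached the background limit and 32.8% the 99th percentile limit in all arrays. The adaptors, kinases and sheddases were all over the background limit, while ligands, coreceptors and target factors lay on both sides of it. Among 10 other ligands, 6 reached the background limit in all arrays, and both limma fits placed 5 above it, 4 below it and 1 (Egf) on no decided side. Egf itself, a product of the distal nephron, had 8.76, 8.16 and 8.16. Nrg2 was at 8.31 in each array, and Epgn (7.35), Nrg3 (7.08) and Nrg4 (6.51) were under the limit. Of 15 coreceptors and heparan sulfate carriers, 8 reached the limit, including Hspg2, the basement membrane perlecan, at 10.57, 10.35 and 10.14, and Flrt2, an FGF receptor partner and guidance ligand, at 10.69, 10.69 and 11.03.

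All 11 ligand processing genes reached the background limit. Adam17, the main sheddase of Hbegf and Tgfa, had 10.30, 10.18 and 10.30. Adam10, the sheddase of Egf and Btc, had 11.22, 11.02 and 11.12. Rhbdf1 (8.45 in each array) and Rhbdf2 (8.55, 8.56 and 8.56), which carry ADAM17 to the cell surface, were also over it. Hgfac, the activator of HGF, stood at the limit with 7.95 in each array.

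All 18 measured adaptors and kinases of the core cascade reached the background limit and 15 the 99th percentile limit (83.3%). Grb2, the adaptor that brings SOS to receptors, had 9.47, 9.39 and 9.30, Shc1 had 9.75, 9.32 and 9.27, Sos1 had 9.23, 9.23 and 9.25, and Frs3, an FGF receptor adaptor, was at 8.70 in each array. Map2k1, the kinase MEK1, had 9.51, 8.68 and 9.44, and was lowest in replicate 2. Gab1, the docking protein of MET, had 10.79, 10.20 and 10.14, and was highest in replicate 1.

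Of 19 feedback inhibitors, 17 reached the limit in all arrays, and the second limma fit placed 15 above it, 2 below it and 2 on no decided side, while the first fit placed 14, 2 and 3. Among the Sprouty genes, which ERK signaling switches on and which restrain it, Spry1 was at 8.08 and Spry2 at 9.01 in each array, Spry3 was at 6.73, 6.76 and 6.73, and Spry4 had 8.54, 9.77 and 9.197. Il17rd, the FGF inhibitor Sef, had 8.47, 9.17 and 9.43. Spry4 and Il17rd were both lowest in replicate 1. Lrig3, a regulator of receptor turnover, was at 7.47, under the limit.

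Of 6 factors that FGF and ERK signaling are known to switch on, 2 reached the limit. Egr1, an immediate early gene, had 9.09, 9.43 and 9.09, and Fosl1, an AP-1 subunit, had 9.14, 9.14 and 9.16. Etv4 and Etv5, each at 7.71 in every array, and Etv1 (7.22, 7.22 and 7.37) were under it, and so was Myc (7.49, 6.88 and 6.88). The receptor kinases that define endothelium served as a comparison: Kdr and Flt1 (VEGF receptors), Flt4, Tek and Tie1 all reached the 99th percentile limit, with Kdr at 12.40, 12.12 and 11.99. The cells were sorted by the activity of the Tek promoter, so a high level of Tek was built into the choice of cells. No test of these lists against other genes was made.

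**Figure D3:**
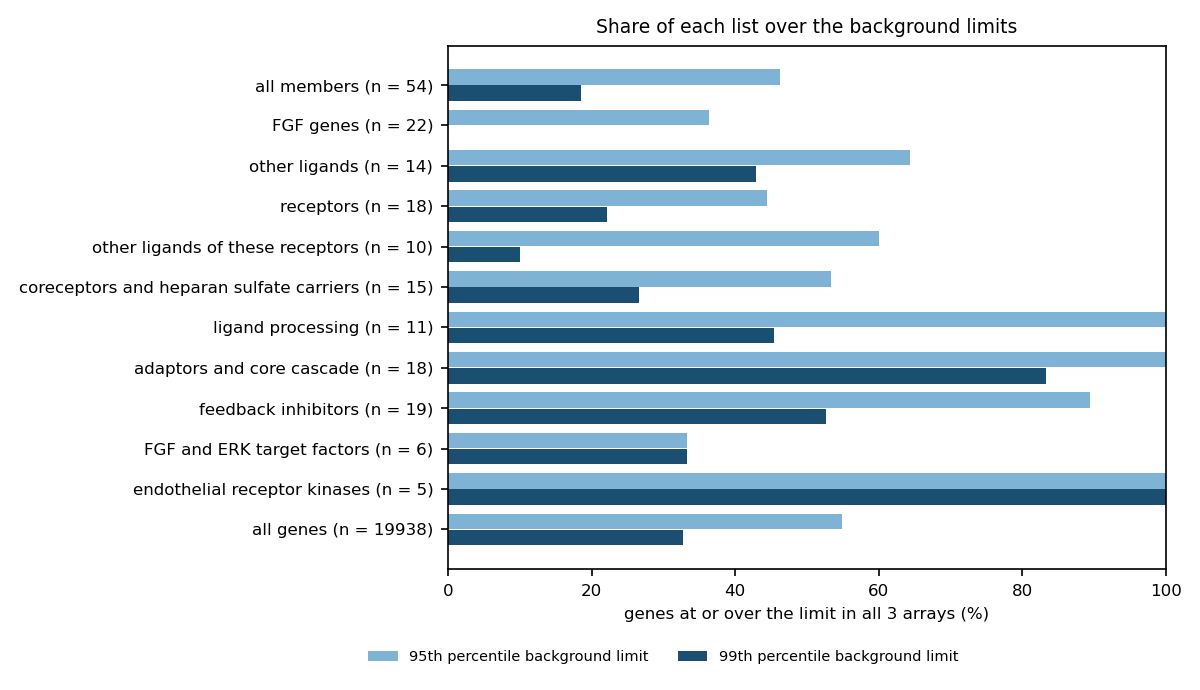
Share of genes (%, horizontal axis) at or over the 95th (light bars) and 99th (dark bars) percentile background limit in all 3 arrays, for the members, their classes, the pathway lists and all genes, with the number measured beside each. The members reached 46.3% and 18.5%, all genes 54.9% and 32.8%, and the FGF genes 36.4% and 0%.

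For most members the deposited values held no spread between arrays, so their variation could not be measured. Identical values in all 3 arrays were found for 36 of 54 members (66.7%), against 46.3% of all genes. The share was larger at low levels: it was 14 of 25 (56%) for members with a mean at or over the background limit, where it was 34.4% of all genes, and 22 of 29 (75.9%) for members under it, where it was 61.6% of all genes. Among the 18 members that varied, 8 spanned more than 0.1 between arrays and 3 more than 0.2. Those 3 were Pdgfd, Hbegf and Gas6.

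No array was high or low throughout the members that varied. Among the 18, replicate 1 alone was the highest for 4 members and the lowest for 5, replicate 2 for 3 and 4, and replicate 3 for 6 and 3. Hbegf was highest in replicate 2, whereas Gas6 was lowest there. Some thick ascending limb markers moved more between arrays than the members did: their summed level was 4816, 2521 and 1849 units in replicates 1, 2 and 3, with Umod, the Tamm-Horsfall protein, at 11.61, 10.40 and 9.49 and the salt transporter Slc12a1 at 9.68, 8.07 and 7.81. Of the other 3 markers, Cldn16 was lowest in replicate 1 (7.07, 7.34 and 7.34), and Kcnj1 (8.84) and Ptger3 (8.14) were the same in every array. Egf, a gene of the same segment, was also highest in replicate 1. Of the 7 members with 3 different values, 1 (Csf1, at 9.19, 9.09 and 9.06) had the order of Umod and 1 (Fgf22, at 8.358, 8.495 and 8.501) the reverse order. The part of tubule RNA in the members' levels was not tested. The proximal tubule markers summed to 722 units in every array. The 8 endothelial markers summed to 36076, 32330 and 31332 units in replicates 1, 2 and 3. Of these, Pecam1, Cdh5, Eng, Esam and Robo4 were highest in replicate 1 and Emcn in replicate 2. Egfl7 and Cldn5 were the same in every array. The 5 endothelial receptor kinases summed to 23191, 19025 and 21582 units, and each was highest in replicate 1.

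**Figure D4:**
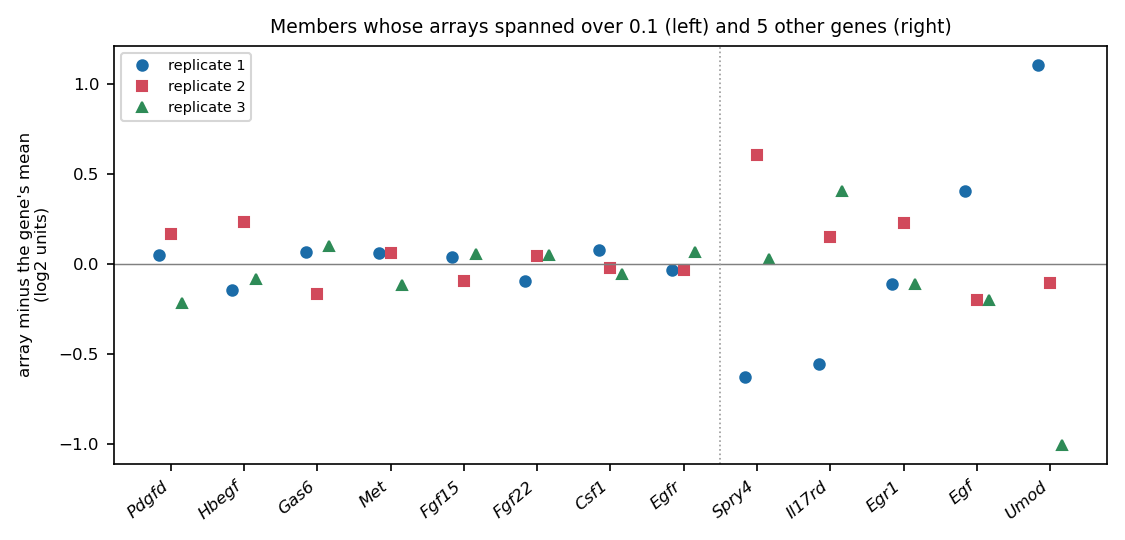
Level in replicates 1 (circles), 2 (squares) and 3 (triangles) minus the gene's mean over the arrays (log2 units, vertical axis), for the 8 members spanning over 0.1 (left of the dotted line) and 5 other genes of the text. The largest SD among the members was 0.20 (Hbegf), whereas Umod ran between 9.49 and 11.61.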

How the data were processed

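The deposited values were log2 expression levels per probe set of an Affymetrix Mouse Gene 1.0 ST array. The labels name Affymetrix Expression Console, and the study names RMA in GeneSpring, which corrects background, normalises quantiles and summarises probes by median polish. The log2 scale was read from the values. The sources used here do not say whether 100 units have the scale of the study's filter. Probe-level files, scan dates and other compartments were not used here.

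Of 35557 probe sets, 21789 named 1 gene, 1621 several and 12147 were unnamed in the platform annotation. Of the first, 21698 (99.6%) were matched to RefSeq symbols of GRCm38.p6. Each gene was represented by its probe set with the highest mean. limma (lmFit, eBayes) was fitted to the level minus each limit, with only an intercept, over 19938 genes. Tests were two-sided, with Benjamini-Hochberg adjustment at a threshold of 0.05. A second fit took the prior variance from genes with 3 different values. Simulated data, with a spread in every gene, were used to try only the first fit against 100 units. The second fit, the background limit and genes with identical values were not simulated. Alternatives changed scaling, probe set choice, prior, low-value filter and limits, and left out each array.

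Per-array values are given for members at or over the background limit and for the 8 with the largest SD. In each pathway list the first 4 genes, the 2 with the largest SD and up to 3 on the other side of the limit were named, and a few others were added after their values were seen. Members and lists were chosen with earlier results of these data known. Software was limma 3.58.1 under R 4.3.3, and scipy 1.17.1, pandas 2.3.3, numpy 2.4.6 and matplotlib 3.10.9 under Python 3.11.15.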

Additional observations from a re-analysis of the deposited data

How the results depend on the processing

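No called difference from 100 units or the background limit changed direction with scaling, prior, filter or an array left out. The choice among several probe sets could not matter, since each member had 1. The number of members above 100 units (53) became 30 at a limit of 200 units, and the number below 100 units (1) became 22 at 200 units and 0 at 50 units. The number of members above the background limit (23) became 9 at its 99th percentile form, 30 at its 90th percentile form and 22 with olfactory receptors alone. Median centring and quantile normalization each gave 24 above and 27 below, with Fgf15 gained and Fgf3 and Tyro3 lost. Leaving out 1 array gave 51 to 53 members above 100 units, 21 to 22 above and 26 to 28 below the background limit. Without replicate 1 the calls of Pdgfd, Met and Egfr were lost, without replicate 2 also those of Fgf20, Fgf21 and Fgf22, and without replicate 3 those of Fgf20, Fgf21, Fgf22 and Hbegf (adjusted p between 0.059 and 0.138, limma), while Fgf9 and Fgf15 were gained without replicate 2. Against 100 units, the call of Fgf7 was lost without replicate 1 or 2 and that of Pdgfd without replicate 1 (adjusted p = 0.099, 0.0998 and 0.052). With 2 arrays left, most genes had no spread, so this fit sets their error near 0. The same omissions with the prior from genes whose values differ, chosen after seeing the data, gave 50 to 51 above 100 units, 0 to 1 below it, 20 to 21 above and 26 below the background limit. Identical values in 36 members and the number of arrays limit what the p-values can show.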

Other observations

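The deposited levels were not spread evenly along the scale. Turned into units, 74 of the members' 162 values (45.7%) ended within 0.01 of 0.06, 0.39 or 0.73 of a unit, fractions chosen after seeing the data. Among all genes 20643 of 59814 values (34.5%) did so, and an even spread would put 6.0% there. Of the 36 members with the same value in all arrays, 21 lay at such a step, as did 4141 of the 9230 genes of that kind. Pairs of unrelated members also had the same value in every array: Ret and Erbb4 at 7.52925, and Fgf3 and Tyro3 at 7.94091. The cause was not tested.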
